A study of Drosophila melanogaster with 8 samples.

Results

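The cytosolic ribosomal protein genes were examined in neurons sorted from fly brains. Genes were taken by symbol as RpL or RpS followed by a number, together with RpLP0, RpLP1, RpLP2 and sta, which gave 88 of the 17868 genes listed, 50 of the large and 38 of the small ribosomal subunit. Genes for the mitochondrial ribosome and the 5 genes whose symbols end in -like are outside this definition. RNA was measured in 8 libraries of Drosophila melanogaster neurons, from brains of male flies about 2 weeks old kept in light-dark cycles. The clk856 > EGFP flies carried EGFP under clk856-GAL4, which drives expression in the clock neurons, and the nSyb > EGFP flies carried it under nSyb-GAL4, which drives expression in all neurons. Each genotype was collected at Zeitgeber time 2 (ZT2, 2 h after lights-on) and at ZT14, with 2 libraries (R1 and R2) per condition. The labels give no further treatment for these groups. Fewer cells were sorted, from more brains, for a clk856 library than for an nSyb library. The methods state that each dissociated sample gave a pair of cell sets, and the labels do not say whether R1 and R2 came from one dissociation, so p-values measure the spread between libraries, which may be technical.

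A ribosome is built from ribosomal RNA and a fixed set of proteins, nearly all of them present in equal copies. The small subunit decodes the mRNA and the large subunit forms the peptide bonds, and the acidic P proteins form a stalk on the large subunit that recruits the elongation factors. In flies, loss of one copy of many of these genes gives the Minute phenotype of slow growth and thin bristles. Ribosomal protein mRNAs are short and abundant, and their translation is controlled together downstream of the kinase TOR. Several members exist as duplicated genes, of which one copy is often used mainly in the germline.

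Between 4823985 and 8439193 reads per clk856 library and between 7970236 and 8449829 per nSyb library fell on genes. The share of reads outside genes was 5.53% to 6.21% in clk856 neurons, against 7.55% to 8.94% in nSyb neurons, and 8939 to 9991 genes were detected in clk856 and 7937 to 8400 in nSyb libraries. Neither measure overlapped between genotypes, and their part in the results was not tested. Spread between libraries was smaller in clk856 neurons, with a biological coefficient of variation of 0.364, than in nSyb neurons, with 0.824. The neuronal markers were present in both populations, and the summed level of 7 of them was 3454 to 3791 RPM (reads relative to the size of the library) in clk856 libraries and 3236 to 3630 RPM in nSyb libraries. Single markers differed in both directions. Higher levels in clk856 neurons were called for futsch and brp (log2 fold changes 0.69 ± 0.13 and 0.36 ± 0.10, SE, edgeR adjusted p = 0.00491 and 0.0324). Syx1A was called lower (log2 fold change -0.54 ± 0.12, edgeR adjusted p = 0.0115). Over all genes tested, 10.3% were called higher and 6.69% lower. All 6 clock neuron markers passed the test for a higher level in clk856 neurons. The 9 glial markers summed to 42.3 to 77.01 RPM in clk856 libraries and 75.1 to 194 RPM in nSyb libraries. Eaat1, a glial glutamate transporter, was the only glial gene to pass the test, at 15.9 ± 9.51 RPM in clk856 and 57.5 ± 17.6 RPM in nSyb neurons (SD, n = 4 each; edgeR adjusted p = 0.0456). Not all glial markers were lower in clk856 neurons. In the order ZT2 R1, ZT2 R2, ZT14 R1, ZT14 R2, moody had 8, 23, 7 and 32 reads in clk856 and 0, 0, 0 and 8 in nSyb libraries. Indy had 0, 7, 49 and 59 reads in clk856 and 0 in all nSyb libraries, and neither gene was tested. The estimates of repo and Gat were positive and those of alrm, Gs2 and wrapper negative, without passing the test. The part of the glial transcripts in the results below was not tested. The 5 markers of dividing cells summed to at most 2.47 RPM in clk856 and at most 1.02 RPM in nSyb libraries. The hemocyte markers summed to 92.9 to 141 RPM in clk856 and 84.4 to 153 RPM in nSyb libraries. Most of each sum was Pxn, at 117 ± 17.1 RPM in clk856 and 112 ± 33.4 RPM in nSyb neurons (SD, n = 4 each). Pxn did not pass the test (edgeR adjusted p = 0.757). Of the other hemocyte markers, Hml had 174 reads in clk856 ZT14 R2 and 0 in all other libraries. NimC1 had 50 and 31 reads in the clk856 ZT14 libraries and at most 1 elsewhere. The genes eater and srp had at most 17 and 2 reads in any library. Of the photoreceptor genes, inaD was called lower, with 0 reads in clk856 and 27 to 124 in nSyb libraries (edgeR adjusted p = 0.00668). Reads of trp, ninaE, Rh4 and ninaC were found only in clk856 libraries, with at most 59, 10, 28 and 5 reads in a library. None of these was tested, and Rh3 had 0 reads in all libraries. Genotype and processing batch cannot be told apart, since the labels give no batch, and in bulk libraries fewer cells of a type and less RNA per cell cannot be told apart.

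Reads on ribosomal protein genes made up a larger part of the clk856 libraries. Their share of all gene reads was 3.38% and 4.03% at ZT2 and 3.999% and 3.77% at ZT14 in clk856 neurons. In nSyb neurons the share was 2.02% and 1.71% at ZT2 and 1.81% and 1.69% at ZT14. The lowest clk856 library was therefore above the highest nSyb library, and the means of 3.79% ± 0.299 and 1.81% ± 0.149 (SD, n = 4 each) differed 2.10-fold. Both subunits had a larger share. Large subunit genes took 2.26% ± 0.173 of the reads in clk856 and 1.07% ± 0.0840 in nSyb neurons, and small subunit genes took 1.54% ± 0.126 and 0.732% ± 0.0652. Within the ribosomal protein reads, the small subunit held 40.2% to 40.8% in the clk856 libraries and 40.3% to 40.9% in the nSyb libraries, so that the balance of the subunits was held within 1 percentage point in all 8 libraries.

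**Figure D1:**
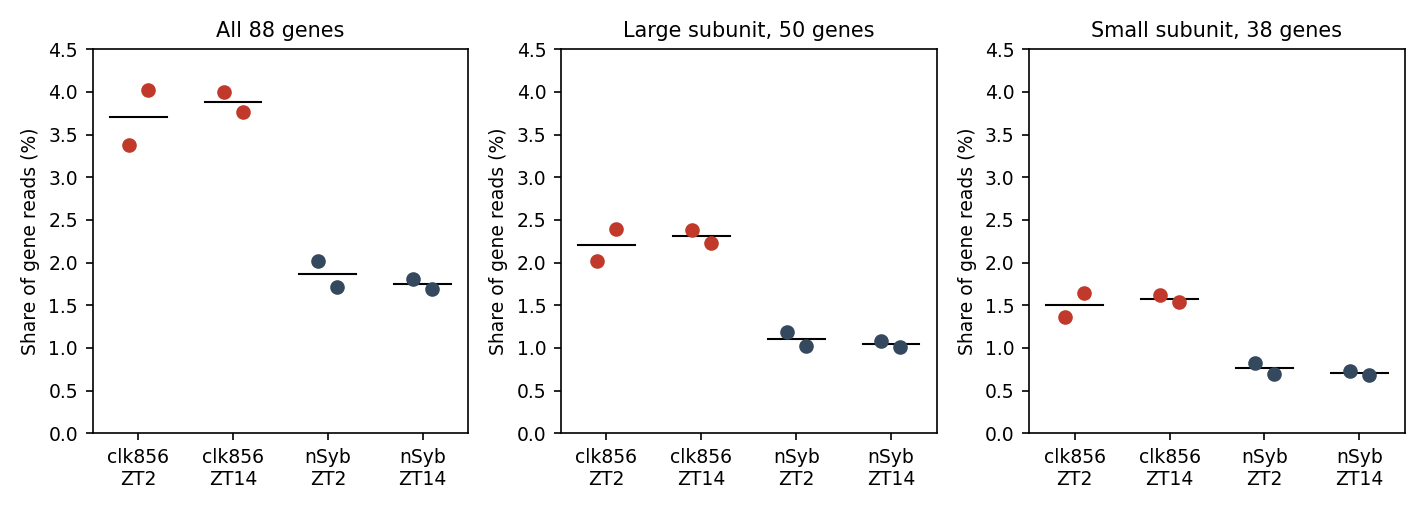
Share of all gene reads (%, y axis) that fell on ribosomal protein genes in each library, for all 88 genes and for each subunit. Points are libraries (clk856 red, nSyb dark blue, x axis by genotype and time) and bars are means of 2 libraries; clk856 libraries lie between 3.38% and 4.03% and nSyb libraries between 1.69% and 2.02%.

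The rise was spread over nearly the whole set. In the comparison of all clk856 with all nSyb libraries (edgeR quasi-likelihood test, Benjamini-Hochberg adjusted p under 0.05), 83 of the 88 members had enough reads to be tested. Of these, 79 were higher in clk856 neurons and 0 were lower, where 10.3% of the 7784 genes tested were called higher and 6.69% lower. The members made up 9.81% of the 805 genes called higher. Their median log2 fold change was 1.31, which is 2.48-fold, and the median over all genes tested was -0.01. A call with at least a 2-fold rise was made for 63 members, against 6.91% of all genes tested. In RPM, the lowest clk856 library was above the highest nSyb library for 78 of the 83, and this was so for 13.5% of all genes tested. When reads were scaled by library size alone, the median of all genes moved to -0.14 and that of the members to 1.18, with 78 members called higher.

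**Figure D2:**
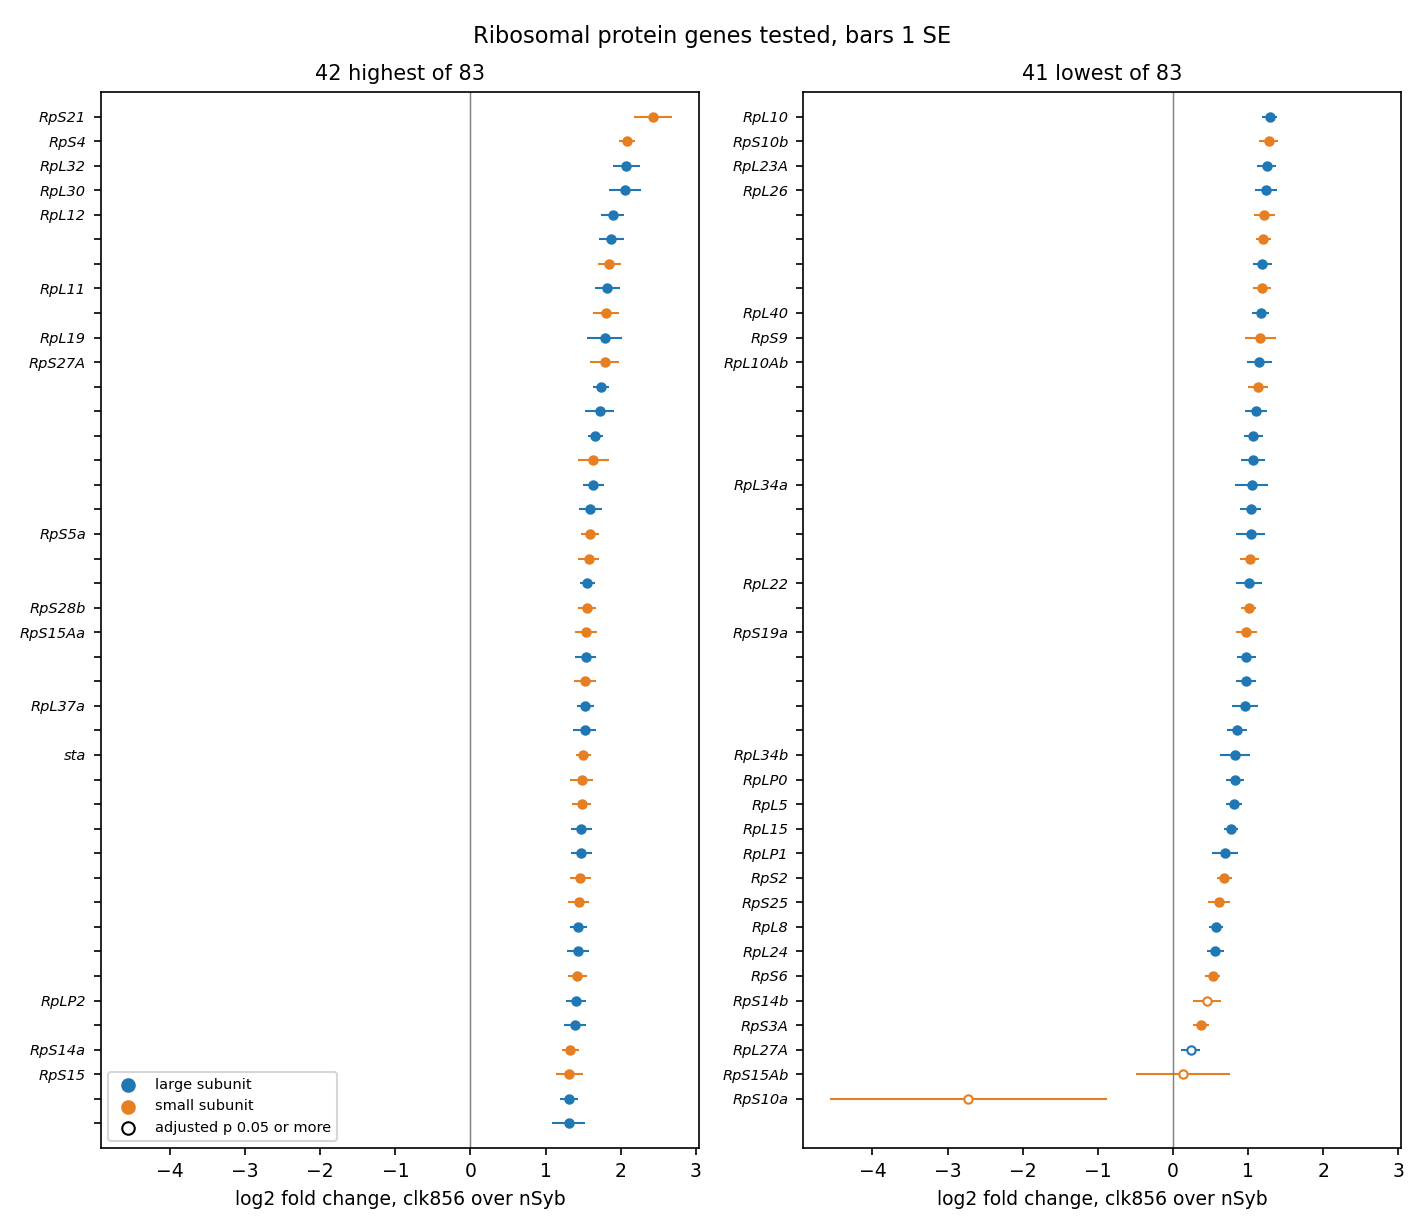
log2 fold change (x axis, clk856 over nSyb, edgeR, bars 1 SE) of the 83 members tested, ordered from RpS21 at 2.43 to RpS10a at -2.72, in 2 columns. Blue marks the large and orange the small subunit, names are given for the members described in the text, and open symbols mark the 4 members that did not pass the test.

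The folds of the members were spread less than those of all genes tested, most of which have fewer reads. The members were not compared with genes of like read number. The interquartile range of the 83 log2 fold changes was 1.01 to 1.55, a width of 0.54, whereas that of all 7784 genes tested had a width of 1.05. Folds of the large subunit (48 tested, 47 higher) had a median log2 value of 1.27, with an interquartile range of 1.004 to 1.54. Folds of the small subunit (35 tested, 32 higher) had a median log2 value of 1.33, with an interquartile range of 1.01 to 1.55. At least a 2-fold rise was measured in 36 of the 48 large and in 27 of the 35 small subunit genes tested. These counts go by the estimate alone, and 14.8% of all 7784 genes tested had a log2 fold change above 1. The difference between the subunits was not tested.

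The genes nearest to these medians show the typical size. RpL10, which joins the large subunit late in its assembly, had 328, 403, 407 and 370 RPM in clk856 neurons and 171, 158, 159 and 159 RPM in nSyb neurons (here and below in the order ZT2 R1, ZT2 R2, ZT14 R1, ZT14 R2). Its log2 fold change was 1.29 ± 0.10 (SE, edgeR adjusted p = 3.22e-05), with no overlap between the genotypes. RpL23A and RpL26, which lie around the exit of the peptide tunnel, had log2 fold changes of 1.25 ± 0.13 and 1.24 ± 0.15. On the small subunit, RpS15 and RpS10b had log2 fold changes of 1.32 ± 0.18 and 1.27 ± 0.13, and RpS14a is described with its paralog below.

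The highest rise was that of RpS21, a small subunit protein known in Drosophila to bind the sta protein. RpS21 had 94.0, 126, 122 and 109 RPM in clk856 neurons and 35.01, 16.4, 17.8 and 18.9 RPM in nSyb neurons. One nSyb library, ZT2 R1, was above the other 3, and all clk856 libraries were above it. The log2 fold change was 2.43 ± 0.25 (5.38-fold, edgeR adjusted p = 0.000196), and it ranged from 2.32 to 2.74 when single libraries were left out. RpS4 followed with 395, 443, 429 and 426 RPM in clk856 and 104.6, 107.5, 114.9 and 91.2 RPM in nSyb neurons. This was a 4.24-fold difference between tight groups (log2 2.08 ± 0.10, edgeR adjusted p = 8.07e-06). RpL32, widely used as a reference gene in fly expression work, was 4.21-fold higher (log2 2.07 ± 0.18), RpL30 4.17-fold (2.06 ± 0.21) and RpL12, part of the base of the stalk, 3.71-fold (1.89 ± 0.15). The exons of RpL30 share 25.1% of their bases with a neighboring gene, CG31793, so some of its reads are uncertain.

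The 3 stalk protein genes were all called higher in clk856 neurons. RpLP0 anchors the stalk to the ribosome and had 303, 301, 318 and 293 RPM in clk856 neurons and 185, 137, 207 and 191 RPM in nSyb neurons. Its log2 fold change was 0.83 ± 0.12 (edgeR adjusted p = 0.00151). RpLP1 and RpLP2 pair with each other on RpLP0. RpLP1 had 135, 167, 159 and 157 RPM in clk856 and 134, 73.8, 104 and 88.7 RPM in nSyb neurons, so that the lowest clk856 and the highest nSyb library almost touched. The log2 fold change of RpLP1 was 0.70 ± 0.17 (edgeR adjusted p = 0.0209), and its adjusted p was 0.0507 to 0.0600 without clk856 ZT2 R2, clk856 ZT14 R1, clk856 ZT14 R2 or nSyb ZT14 R2. RpLP2 had 134, 173, 161 and 156 RPM in clk856 and 63.9, 53.9, 70.1 and 59.4 RPM in nSyb neurons, which is a log2 fold change of 1.40 ± 0.13 (edgeR adjusted p = 0.000121). The difference between the folds of the stalk genes was not tested.

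Both genes that encode a ribosomal protein fused to ubiquitin rose. RpL40 had 273, 365, 366 and 341 RPM in clk856 and 150, 151, 170 and 155 RPM in nSyb neurons (log2 fold change 1.17 ± 0.11, edgeR adjusted p = 0.00013). RpS27A had 191, 257, 252 and 230 RPM in clk856 and 95.0, 48.3, 72.0 and 68.0 RPM in nSyb neurons (log2 fold change 1.79 ± 0.19, edgeR adjusted p = 0.000217). The nSyb libraries spread more for RpS27A than for RpL40, and neither gene overlapped between genotypes. The gene sta encodes the small subunit protein related to the laminin receptor of vertebrates and had 332, 400, 396 and 380 RPM in clk856 and 139, 128, 132 and 159 RPM in nSyb neurons. Its log2 fold change was 1.502 ± 0.10 (edgeR adjusted p = 1.6e-05). RpL5 and RpL11, chosen after their values were seen, bind the 5S ribosomal RNA together before they enter the large subunit. Their log2 fold changes were 0.81 ± 0.11 and 1.82 ± 0.16.

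The exceptions were of several kinds. RpL27A was abundant in both populations, with 160, 178, 196 and 186 RPM in clk856 and 200, 146, 153 and 142 RPM in nSyb neurons. The nSyb library ZT2 R1 was above every clk856 library, the log2 fold change was 0.23 ± 0.13 and the gene did not pass the test (edgeR adjusted p = 0.269). RpL27A was thereby the only large subunit gene tested that was not called. RpS3A, the only member on chromosome 4, had 333, 411, 417 and 420 RPM in clk856 and 340, 339, 310 and 290 RPM in nSyb neurons. The groups overlapped through clk856 ZT2 R1. RpS3A passed the test with the smallest rise of all called members (log2 fold change 0.37 ± 0.10, edgeR adjusted p = 0.0326). The call was lost with library-size or upper-quartile scaling and without clk856 ZT2 R2, clk856 ZT14 R1, clk856 ZT14 R2, nSyb ZT14 R1 or nSyb ZT14 R2, with adjusted p between 0.0678 and 0.127.

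Other abundant members rose by well under 2-fold. RpS6, the ribosomal substrate of the kinase S6K, had 332, 350, 349 and 363 RPM in clk856 and 297, 255, 231 and 229 RPM in nSyb neurons. Its groups did not overlap, and the log2 fold change was 0.53 ± 0.10 (edgeR adjusted p = 0.00614). RpL24, which bridges the subunits, had a log2 fold change of 0.56 ± 0.11. RpL8, near the site of peptide bond formation, had 0.58 ± 0.10. RpS25, which some viral mRNAs need for initiation, had 0.61 ± 0.14, and RpS2 had 0.69 ± 0.10. RpS25 overlapped between genotypes through nSyb ZT2 R1, at 250 RPM, against 240 RPM in clk856 ZT2 R1. In all, 16 members were called higher with less than a 2-fold rise. RpL8, RpS25 and RpS2 were chosen after their values were seen.

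Of the 5 members not tested, RpL10Aa, RpL37b and RpS19b had 0 reads in all 8 libraries, where 3 reads correspond to 0.161 to 0.299 RPM. RpS5b, a copy used in the germline of flies, had 2, 0, 0 and 13 reads in clk856 libraries and 60, 0, 0 and 0 reads in nSyb libraries. RpS28a had 0, 0, 1 and 1 reads in clk856 libraries and 0, 4, 5 and 0 reads in nSyb libraries. Each of the 5 has a paralog that carried the signal, and all 5 of these paralogs rose. The log2 fold changes were 1.15 ± 0.17 for RpL10Ab, 1.53 ± 0.11 for RpL37a, 0.98 ± 0.14 for RpS19a, 1.59 ± 0.12 for RpS5a and 1.55 ± 0.13 for RpS28b (edgeR adjusted p = 0.00138 or below for each).

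RpS10a was the only member with a negative estimate. It had 20, 0, 1 and 0 reads in clk856 libraries and 0, 27, 95 and 33 reads in nSyb libraries, with a log2 fold change of -2.72 ± 1.84 that did not pass the test (edgeR adjusted p = 0.37). The groups overlapped, since nSyb ZT2 R1 had 0 reads, and all but 1 of the clk856 reads came from ZT2 R1. The log2 fold change was -6.03 without clk856 ZT2 R1 and -1.72 without nSyb ZT14 R1. Its paralog RpS10b had 181, 234, 216 and 206 RPM in clk856 and 92.6, 98.0, 93.7 and 77.6 RPM in nSyb neurons.

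Both copies were expressed in 3 of the member pairs. RpS14a and RpS14b lie next to each other on the X chromosome (dm6, chrX:7933742-7934677 and chrX:7934898-7935792, plus strand) and encode identical proteins. RpS14a had 185, 244, 223 and 215 RPM in clk856 neurons and 91.0, 91.5, 89.4 and 89.8 RPM in nSyb neurons (log2 fold change 1.33 ± 0.11, edgeR adjusted p = 6.69e-05). RpS14b had 32.0, 41.9, 37.0 and 34.5 RPM in clk856 and 30.6, 25.1, 28 and 27.6 RPM in nSyb neurons. Its clk856 libraries were also all above the nSyb libraries, yet the log2 fold change of 0.45 ± 0.19 did not pass the test (edgeR adjusted p = 0.143; DESeq2 adjusted p = 0.0463). RpS14b thus held 14.7%, 14.7%, 14.2% and 13.8% of the reads of the pair in clk856 neurons and 25.2%, 21.5%, 23.9% and 23.5% in nSyb neurons. The means of 14.4% ± 0.425 and 23.5% ± 1.504 (SD, n = 4 each) differed by -9.16 percentage points, and the libraries did not overlap at either time point. Reads that match both copies equally cannot be assigned to one of them, and how the counting treated such reads is not stated in the sources used here.

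RpS15Ab, annotated with 1 exon block, is the lesser copy of RpS15Aa, which has 2. RpS15Aa rose, with 153, 152, 173 and 180 RPM in clk856 and 75.6, 52.6, 52.3 and 56.6 RPM in nSyb neurons (log2 fold change 1.54 ± 0.15, edgeR adjusted p = 0.000121). RpS15Ab had 12.7, 12.8, 19.7 and 22.6 RPM in clk856 and 28.7, 2.15, 16.9 and 17.2 RPM in nSyb neurons, with a log2 fold change of 0.14 ± 0.62 (edgeR adjusted p = 0.913). Its share of the pair was 7.65% to 11.1% in clk856 libraries. In nSyb libraries it was 27.5%, 24.4% and 23.3%, with nSyb ZT2 R2 apart at 3.92%. The difference of the mean shares was -10.6 percentage points with all libraries and -15.9 without nSyb ZT2 R2. RpS15Ab stood on the side of a slight fall without nSyb ZT2 R2, with a log2 fold change of -0.22. Its estimate also turned negative without clk856 ZT14 R2.

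RpL34a and RpL34b both rose. RpL34a had 41.1, 39.7, 39.99 and 42.05 RPM in clk856 and 20.03, 16.7, 17.4 and 28.5 RPM in nSyb neurons (log2 fold change 1.05 ± 0.22, edgeR adjusted p = 0.01). RpL34b had 51.7, 58.7, 58.5 and 49.2 RPM in clk856 and 37.2, 22.5, 33.8 and 35.6 RPM in nSyb neurons (log2 fold change 0.83 ± 0.20, edgeR adjusted p = 0.0167). The share of RpL34a was 42.8% ± 2.83 in clk856 and 39.0% ± 5.27 in nSyb neurons (SD, n = 4 each), and the libraries overlapped. Per exon base the share of RpL34a was 52.8% ± 2.87 in clk856 and 48.8% ± 5.54 in nSyb neurons. In clk856 neurons the greater copy therefore depends on whether exon length is taken into account. It also depends on the length used, with 65.5 RPM for RpL34a and 70.7 RPM for RpL34b per kilobase of longest transcript. In nSyb neurons RpL34a had the lesser mean by reads and per exon base, with libraries from 43.5% to 54.4% per exon base. The call of RpL34b was lost without clk856 ZT2 R2 (adjusted p = 0.0509) and without clk856 ZT14 R1 (adjusted p = 0.0577).

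No related gene outside the definition passed the test. RpL24-like acts in assembly of the large subunit, in the place that RpL24 later takes, and had 78.1 ± 6.70 RPM in clk856 and 72.8 ± 18.4 RPM in nSyb neurons (SD, n = 4 each; log2 fold change 0.17 ± 0.19, edgeR adjusted p = 0.623). Its share of the reads of both genes was 27.3% to 28.7% in clk856 libraries and 28.8% to 37.7% in nSyb libraries, which met at their edges without overlapping. RpLP0-like, an assembly factor related to RpLP0, had 13.3 ± 1.33 RPM in clk856 and 16.1 ± 12.4 RPM in nSyb neurons (log2 fold change -0.20 ± 1.08, edgeR adjusted p = 0.927), with 0 reads in nSyb ZT14 R1. RpL22-like, a testis paralog of RpL22, and RpS28-like had 0 reads in all libraries. RpL7-like had a mean of 0 RPM in clk856 and 0.04 RPM in nSyb neurons.

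**Figure D3:**
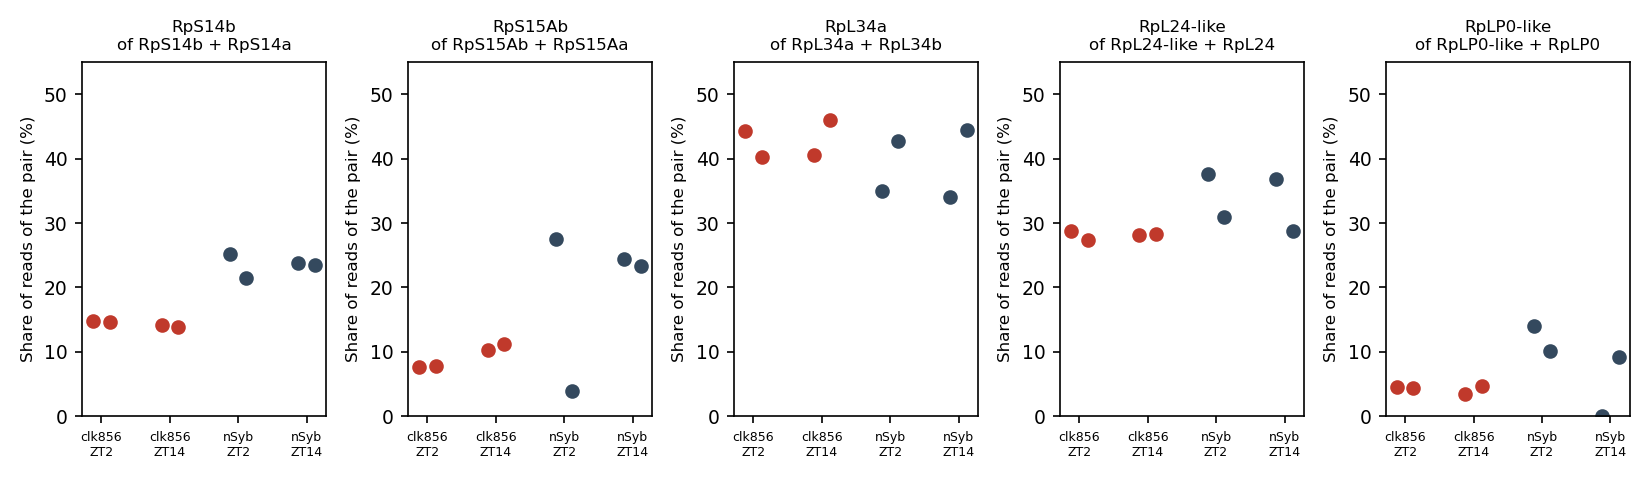
Share (%, y axis) of the gene named first in each panel title in the reads of each of 5 gene pairs, by genotype and time (x axis); points are libraries, clk856 red and nSyb dark blue. RpS14b lies between 13.8% and 14.7% in clk856 and between 21.5% and 25.2% in nSyb libraries, and RpL34a overlaps between genotypes.

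Levels were compared between genes only per kilobase of annotated exon. The highest members in clk856 neurons included RpL40 at 510 ± 66.4 and RpL15 at 501 ± 55.6 RPM per exon kilobase (SD, n = 4), whose libraries overlapped, so that their order is not resolved. In nSyb neurons RpL15 was first at 306 ± 13.5 and RpL40 followed RpS2 and RpL27A at 237 ± 13.97 RPM per exon kilobase. The median over 82 members, RpS10a and those not tested left out, was 231 RPM per exon kilobase in clk856 and 102 in nSyb neurons. Apart from RpS15Ab, the lowest of the 82 in clk856 neurons was RpS9 at 44.1 ± 7.01 RPM per exon kilobase, against 20.6 ± 2.35 in nSyb neurons, although 50.3% of its exon bases lie within an antisense gene and counting by strand was not stated. The members from the 10th to the 90th percentile spanned 3.28-fold in clk856 and 4.61-fold in nSyb neurons. The order of members was largely shared: their log2 levels correlated between genotypes with Pearson's r = 0.87 and Spearman's rho = 0.88 across 82 genes, which share libraries and exon lengths and are not independent replicates.

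Members with high levels in nSyb neurons tended to have the smaller folds. With the members split by nSyb level into 4 bins from low to high, the median log2 fold change was 1.59 (21 genes), 1.504 (20 genes), 1.21 (20 genes) and 0.98 (21 genes). The nSyb values enter both measures here. With the fold from the ZT2 libraries and the nSyb level from the ZT14 libraries, Pearson's r was -0.38 and Spearman's rho -0.45 across 82 genes, and with the time points exchanged they were -0.33 and -0.37. Separate libraries do not remove the link, since the nSyb level of a gene remains the denominator of its fold. The folds at the 2 times correlated with r = 0.87 and rho = 0.87 across the 82 genes, which come from separate libraries but share the preparation.

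**Figure D4:**
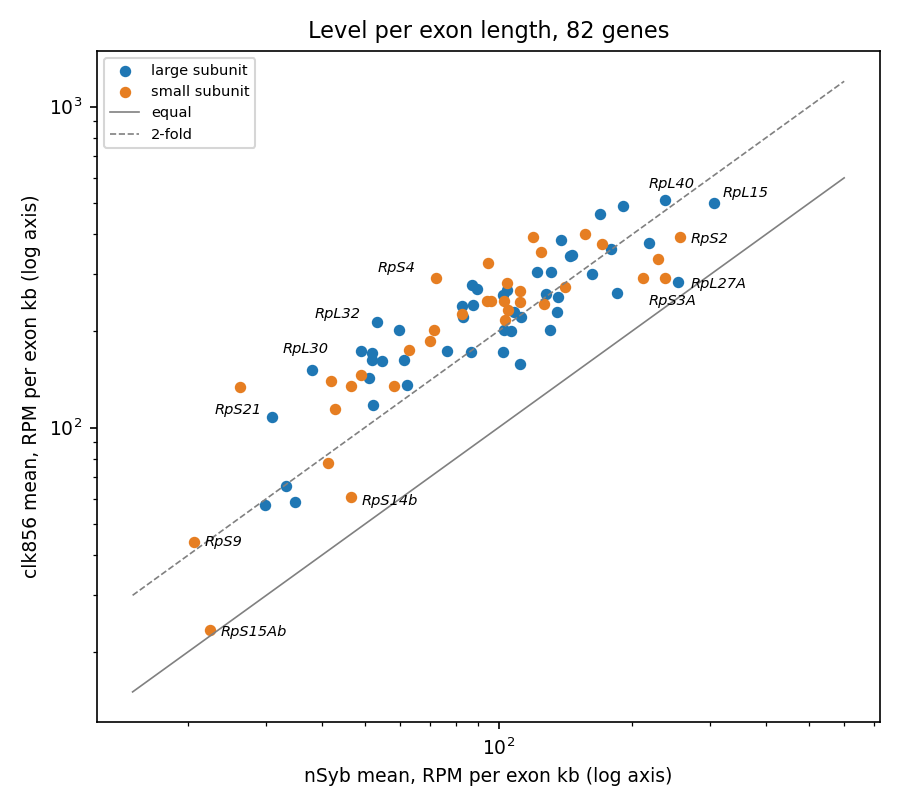
Mean level of 82 members in clk856 (y axis) against nSyb neurons (x axis), in RPM per exon kilobase on log axes, 4 libraries each. The solid line marks equal levels and the dashed line a 2-fold higher level in clk856; RpS21, RpL30, RpL32 and RpS4 lie farthest above the dashed line, and RpS15Ab, RpL27A and RpS3A lie near the solid line.

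The folds of members showed little relation to transcript length. The exons of a member covered 901 bases in the median (288 to 3835), and the log2 fold change correlated with log2 exon length with r = 0.05 and rho = 0.09 across 82 genes. Members with a longest transcript of up to 1000 bases (52 tested) had a median log2 fold change of 1.31, and the 1103 other genes of this length had -0.16. Members of between 1 and 2 kilobases (30 tested) had a median of 1.36, and the 2360 other genes of this length had -0.29. Other genes with transcripts over 3 kilobases had a median of 0.35. Of the other genes, 3.90% of those up to 1000 bases, 3.56% of those between 1 and 2 kilobases and 19.01% of those over 3 kilobases were called higher. The part of transcript length in the rise was not tested. Members with at least 10% of their exon bases inside other genes (10 tested) had a median log2 fold change of 1.23, and those with none (55 tested) had 1.31. By chromosome, the medians were 1.19 on 2L (17 tested), 1.40 on 2R (18), 1.21 on 3L (14), 1.26 on 3R (18) and 1.502 on X (15).

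Within a genotype the members varied little between libraries. The coefficient of variation of scaled counts over the 4 libraries had a median of 9.39% over the 83 members in clk856 and 13.5% in nSyb neurons. Over all genes tested, most of which have fewer reads, the medians were 21.2% in clk856 and 35.4% in nSyb neurons. The variation was smaller in clk856 than in nSyb neurons for 61 of the 83 members and for 5946 of the 7784 genes tested. These shares are near each other, so the count is no result about the members.

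No member passed the test for a difference between the time points in either population. In clk856 neurons, 0 of 82 members tested were called between ZT14 and ZT2 (edgeR quasi-likelihood test; 0 at an unadjusted p under 0.05 and 0 called by DESeq2), where 0.0244% of the 8188 genes tested were called and 6.77% had an unadjusted p under 0.05. Their log2 fold changes, ZT14 over ZT2, lay between -0.24 and 0.73 with a median of 0.06. The median moved to -0.09 without clk856 ZT2 R1, to just below 0 without clk856 ZT14 R1 and to 0.22 without clk856 ZT2 R2, so its direction rested on single libraries. The smallest p was that of RpS15Ab, with a log2 fold change of 0.73 ± 0.30 (edgeR unadjusted p = 0.052, adjusted p = 0.744).

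In nSyb neurons, 0 of 83 members were called between ZT14 and ZT2 (edgeR; 0 at an unadjusted p under 0.05, and by DESeq2 0 called and 1 at an unadjusted p under 0.05), where 0% of the 7671 genes tested were called and 3.95% had an unadjusted p under 0.05. The median log2 fold change was -0.09, and without nSyb ZT2 R1 it was 0.04. The lowest p was that of RpL19, whose log2 difference was 0.66 ± 0.37 (edgeR unadjusted p = 0.128). Of 84 members, none passed the interaction test of the time effect between genotypes (edgeR, 0 called and 0 at an unadjusted p under 0.05; by DESeq2 0 called and 2 at an unadjusted p under 0.05), where 0.0112% of 8926 genes were called and 6.51% had an unadjusted p under 0.05. The lowest p belonged to RpL10Ab, with an interaction of 0.58 ± 0.27 on the log2 scale (edgeR adjusted p = 0.774). A p that misses the threshold with 2 libraries per condition does not show that the time points were equal.

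The rise in clk856 neurons was also measured at each time point alone. The median log2 fold change of the members was 1.28 in the ZT2 libraries and 1.38 in the ZT14 libraries. With 2 libraries against 2, 66 members passed the test at ZT14, where 3.13% of 8140 genes were called higher, and 1 member, RpS4, passed at ZT2, where 0.1% of 7998 genes were called higher.

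Among genes that work with the ribosome, those of translation rose in part. Of 32 translation factors and ribosome-associated genes, 12 were higher and 1 was lower in clk856 neurons, where 10.3% of all genes tested were called higher and 6.69% lower, with a median log2 fold change of 0.46. The elongation factor eEF2, which moves the ribosome along the mRNA, had 602 ± 35.8 RPM in clk856 and 247 ± 15.98 RPM in nSyb neurons (SD, n = 4 each; log2 fold change 1.35 ± 0.08, edgeR adjusted p = 1.02e-05). The genes for the factor that delivers the aminoacyl-tRNA, eEF1alpha1 and eEF1alpha2, had log2 fold changes of 1.39 ± 0.17 and 0.76 ± 0.06. Rack1, a scaffold bound to the small subunit, had 1.22 ± 0.14, and the helicase eIF4A had 0.89 ± 0.11. The initiation factor subunit eIF3a had 87.9 ± 11.3 RPM in clk856 and 17.7 ± 3.21 RPM in nSyb neurons (log2 fold change 2.38 ± 0.19, edgeR adjusted p = 5.68e-05). Another subunit, eIF3m, named after its values were seen, was the gene that fell (log2 fold change -0.46 ± 0.13, edgeR adjusted p = 0.0352).

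Of 26 genes of ribosome biogenesis, 1 was higher and 2 were lower in clk856 neurons, against 10.3% and 6.69% of all genes tested, with a median log2 fold change of 0.06. Fib, the methyltransferase of the box C/D snoRNPs, had 49, 16, 30 and 109 reads in clk856 libraries and 0, 0, 2 and 0 reads in nSyb libraries (edgeR adjusted p = 0.0141), which is at least 20.5-fold higher against the mean nSyb level that 3 reads per library would give. Tif-IA, an initiation factor of RNA polymerase I, had 60.1 ± 13.4 RPM in clk856 and 106 ± 10.5 RPM in nSyb neurons (log2 fold change -0.76 ± 0.18, edgeR adjusted p = 0.0177).

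Of 18 regulators of ribosomal protein genes and of the TOR pathway, 2 were higher and 0 lower, with a median log2 fold change of 0.12. This count is near the 10.3% of all genes tested that were called higher and is no result about the list. Tsc1, a TOR inhibitor, had 39.4 ± 9.99 RPM in clk856 and 8.08 ± 3.29 RPM in nSyb neurons (SD, n = 4 each; log2 fold change 2.36 ± 0.36, edgeR adjusted p = 0.00177). REPTOR, a transcription factor that acts when TOR is off, had 82.5 ± 9.48 RPM in clk856 and 57.5 ± 8.46 RPM in nSyb neurons (log2 fold change 0.59 ± 0.16, edgeR adjusted p = 0.0291).

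The genes of the mitochondrial ribosome, which translates the few mRNAs of the mitochondrial genome, had lower rather than higher summed RPM in clk856 neurons. Of 73 genes with an mRpL or mRpS symbol, 72 were tested, of which 1 was higher, 7 were lower and 20 had a positive estimate, with a median log2 fold change of -0.21. Over all genes tested, 10.3% were called higher, 6.69% were called lower and 49.3% had a positive estimate. The summed level of the mitochondrial genes was 2004, 2104, 2437 and 2417 RPM in clk856 libraries and 3190, 2539, 2918 and 2580 RPM in nSyb libraries. These sums did not overlap in RPM, but the gap between 2437 and 2539 RPM was small and depends on the scale. RPM does not carry the scaling factors of the edgeR test (TMM), which were 0.943 to 0.969 in clk856 and 1.03 to 1.06 in nSyb libraries. The one gene that rose was mRpS9 (log2 fold change 1.24 ± 0.29, edgeR adjusted p = 0.0158), and the largest fall among those called was that of mRpS35 (log2 fold change -1.05 ± 0.22, edgeR adjusted p = 0.01). Both were named after their values were seen, and the difference between the cytosolic and the mitochondrial set was not tested.

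**Figure D5:**
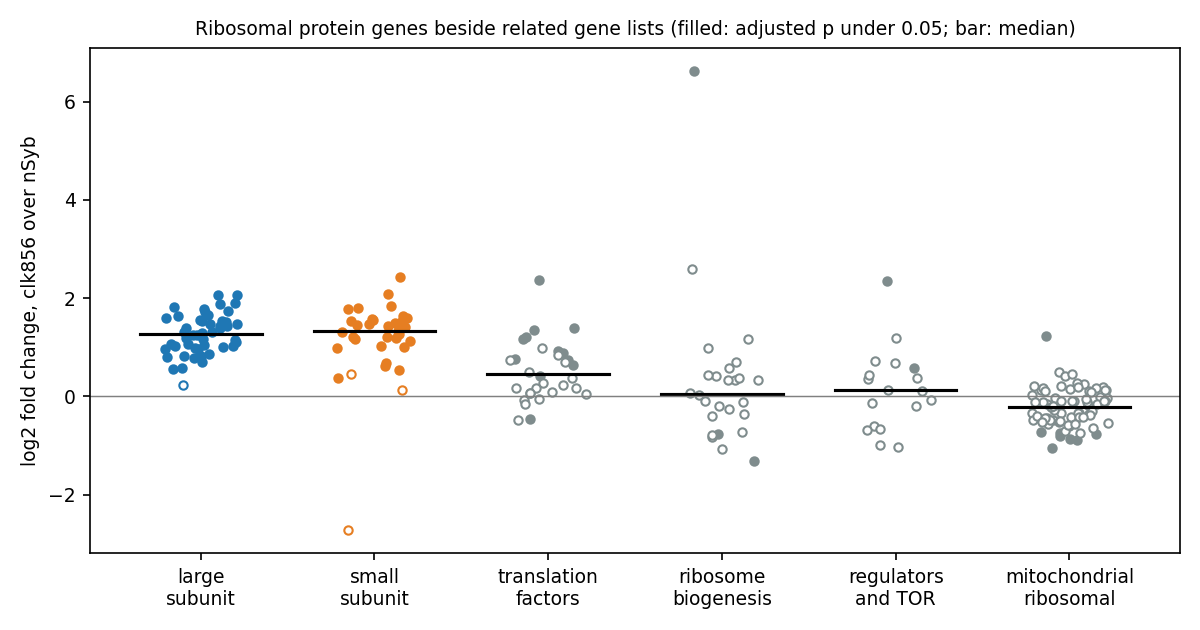
log2 fold change (y axis, clk856 over nSyb, edgeR) of the genes tested in the cytosolic ribosomal subunits and in 4 related gene lists (x axis); filled points passed the test and black bars are medians. The medians are 1.27 and 1.33 for the large and small subunit, 0.46 for translation factors, 0.06 for ribosome biogenesis, 0.12 for regulators and -0.21 for the mitochondrial ribosome; sideways scatter has no meaning.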

How the data were processed

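Neurons were labeled with EGFP, sorted by FACS, and polyA RNA was amplified by SMART-seq2 and made into Nextera XT libraries. Reads were aligned by the authors to dm6 with STAR (per the submitters' processing notes, after bcl2fastq 2.20) and PCR duplicates were removed with Picard. The counting program, annotation release and strand setting are not given in the sources used here. The deposited count per gene (raw reads) was used in all tests. For RPM, the authors scaled reads to a library total that exceeded the listed reads 1.84- to 1.88-fold. The deposited RPKM values rest on a length that mostly equals the gene span with introns, and were not used. Reads assigned to no gene or to several (11.4% to 12.1% of a clk856 and 13.5% to 14.8% of an nSyb library) were left out.

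Counts were tested with edgeR 4.0.16 in R 4.3.3 (TMM, filterByExpr with a minimum count of 10, quasi-likelihood test, Benjamini-Hochberg adjustment over all genes, threshold 0.05). Genotypes were compared over 4 libraries against 4 with both times combined, time points within each genotype, and their difference as an interaction. SE is the log2 fold change over the square root of the F statistic. Gene positions and exon lengths came from Ensembl BDGP6.54, in which 86 members matched by symbol and 2 by an older symbol. RPM was divided by the length of the union of exons for levels. Scripts were tested on simulated data. Replicates differed by more than counting noise in every condition.

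The members and gene lists were chosen with earlier results of these data known. Named members were the 5 highest and 5 lowest folds, all paralog pairs, RpLP0, RpLP1, RpLP2, sta, RpL40, RpS27A, RpS6, RpL32, the 3 highest and lowest levels, up to 5 lowest p values per time or interaction test, the 3 genes of each subunit nearest its median, and up to 6 list genes past the threshold by p. Alternatives were other scalings and filters, other edgeR tests, DESeq2 1.42.0, single time points, time or replicate number in the model, other lengths and denominators, and leaving out each library. Calculations outside R used Python 3.11.15 with pandas 2.3.3, scipy 1.17.1 and matplotlib 3.10.9. Sequences were not analysed here, and some named genes under this rule are not reported here.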

Additional observations from a re-analysis of the deposited data

Results flagged for a closer look

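Among the 4 libraries of a genotype, 10 values of named members stood apart from the other 3 by Dixon's test, out of 87 groups of libraries examined, where chance gives about 1 in 20. In clk856 neurons, RpS3A was low in ZT2 R1 at 333 RPM (other libraries 411 to 420 RPM), RpS10a was high in ZT2 R1 at 1.12 RPM (0 to 0.07 RPM) and RpS5b was high in ZT14 R2 at 0.87 RPM (0 to 0.11 RPM). In nSyb neurons, 6 of the 7 values that stood apart were high values of ZT2 R1. They were RpS21 at 35.01 RPM (16.4 to 18.9 RPM), RpS5b at 3.4 RPM (0 RPM in the others), RpL10Ab at 143.8 RPM (87.8 to 95.7 RPM), RpS28b at 77.3 RPM (66.6 to 67.6 RPM), RpL7 at 109.6 RPM (98.1 to 100.03 RPM) and RpL10 at 171 RPM (158 to 159 RPM). RpL26 was low in nSyb ZT14 R2 at 49.9 RPM (63.9 to 66.1 RPM). The share of gene reads on ribosomal protein genes in nSyb ZT2 R1, 2.02%, was the highest of the nSyb libraries, and without this library 79 members were called higher, with a median log2 fold change of 1.34.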

How the results depend on the processing

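Outside the tests at a single time point, 76 to 80 members were called higher in clk856 neurons under every alternative run, and the median log2 fold change was 1.18 to 1.35. At ZT2 alone, with 2 libraries against 2, the count fell to 1. Leaving out single libraries gave counts of 76 to 79, medians of 1.25 to 1.35 and a ratio of the read shares of 2.06 to 2.18. RpS15Ab changed direction to -0.18 at ZT2 alone, and leaving out single libraries gave it -0.22 to 0.56. The difference in the RpS14b share was -11.3 percentage points per exon base and -9.83 to -8.62 with single libraries left out. The annotated exons of RpS14a are longer than those of RpS14b. The time and interaction counts stayed at 0 under every alternative. Of the named members, 820 single values stayed on their side of the threshold and kept their direction, 58 lost the call (45 of them at a single time point), 1 gained it and 3, all of RpS15Ab, changed direction.

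With the replicate number as a block, 79 members were called higher between genotypes, the median was 1.32, and the time and interaction counts stayed at 0. Deviations of same-numbered libraries correlated with r between -0.03 and 0.03 across 7784 genes and between -0.36 and 0.34 across the members. Whether same-numbered libraries shared handling cannot be told from these values. No alternative matched the depth of the libraries, and values of copies with under 100 reads in every library rest on few reads. No processing batch is given in the labels.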
